A study of Mus musculus with 24 samples.

Results

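The comparison concerns ventral neurons of the mouse lumbar spinal cord in animals that had run on a rotarod and in controls. Members were the nuclei that the deposited annotation places in a population named VE, VI, VC or VM plus a number. In the 9 control and 5 rotarod mice there were 1098 such nuclei among 10500 barcodes (10.5%), 791 of them in controls and 307 in rotarod mice. The whole series holds 18000 barcodes and 1444 ventral nuclei.

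The lumbar cord was freed of its dorsal root ganglia, its nuclei were released, and single nuclei were sequenced by Drop-seq, which pairs each nucleus with a barcoded bead in a droplet and marks every captured RNA molecule by a unique molecular identifier (UMI). The mice were of the outbred ICR/CD-1 stock, of both sexes and 8 to 11 weeks old, and no transgene or mutation is named. Rotarod mice were habituated for 1 hour and then walked on a rod that accelerated to 40 rotations per minute over 5 minutes. Control mice received no stimulus that the labels name, whether they were habituated is not stated, and no source used here gives the time from the rotarod to collection. The other group of the series, 10 mice injected with formalin in the hindpaws, was not part of the comparison. Brain is the tissue in the labels, although their protocol describes the lumbar cord. Forebrain marker genes summed to between 0 and 22.8 UMIs per 1000000 (CPM) in the ventral nuclei of control mice and between 0 and 24.4 CPM in rotarod mice.

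The ventral horn holds the motor neurons, which drive skeletal muscle through acetylcholine, and the excitatory and inhibitory interneurons that pattern their firing during stepping. Excitatory interneurons load glutamate into vesicles with Slc17a6, and many ventral inhibitory interneurons release glycine, which Slc6a5 takes up again. Firing neurons switch on immediate early genes such as Fos within minutes, so the level of these genes is widely used as a trace of recent activity, and slower programmes of channels, receptors and growth factors follow them.

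Marker genes followed the family names in part. VE nuclei held Slc17a6 at 78.4 ± 17.4 CPM (SD, n = 11 mice) and Slc6a5 at 36.3 ± 24.5 CPM. In VI nuclei Slc6a5 stood at 157 ± 44.2 CPM (n = 12) and Slc17a6 at 31.8 ± 21.1 CPM. The cholinergic enzyme Chat was at 63.8 ± 85.5 CPM in VC nuclei (n = 14), with 0 in some mice and 307 CPM in the highest. Slc17a6 averaged 80.6 ± 38.6 CPM in VC nuclei, near its level in VE. VC nuclei also carried the dorsal horn factor Lmx1b at 75.0 ± 75.5 CPM, against 113 ± 55.7 CPM in dorsal neurons. Mnx1, a defining factor of motor neurons, had 0 UMIs in every family. VM nuclei mixed Slc6a5 at 78.6 ± 45.3 CPM (n = 7) with Slc17a6 at 41.4 ± 32.3 CPM. VC and VM are therefore kept as codes.

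Ventral nuclei per mouse ran from 14 to 182 (median 65) in controls and were 16, 33, 37, 120 and 101 in rotarod mice 1 to 5. Their summed UMIs ran from 58383 to 1361386 in controls and from 48200 to 1067393 in rotarod mice, so that a single UMI was worth 20.7 CPM in rotarod mouse 1 and 17.1 CPM in control mouse 4. The median UMI count of a ventral nucleus averaged 4118 ± 1196 over control mice and 4557 ± 1888 over rotarod mice (two-sided exact permutation p = 0.597). No cell barcode was shared between libraries among the ventral nuclei. Xist stood above the Y-linked genes in 5 of 9 control and 2 of 5 rotarod mice.

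**Figure D1:**
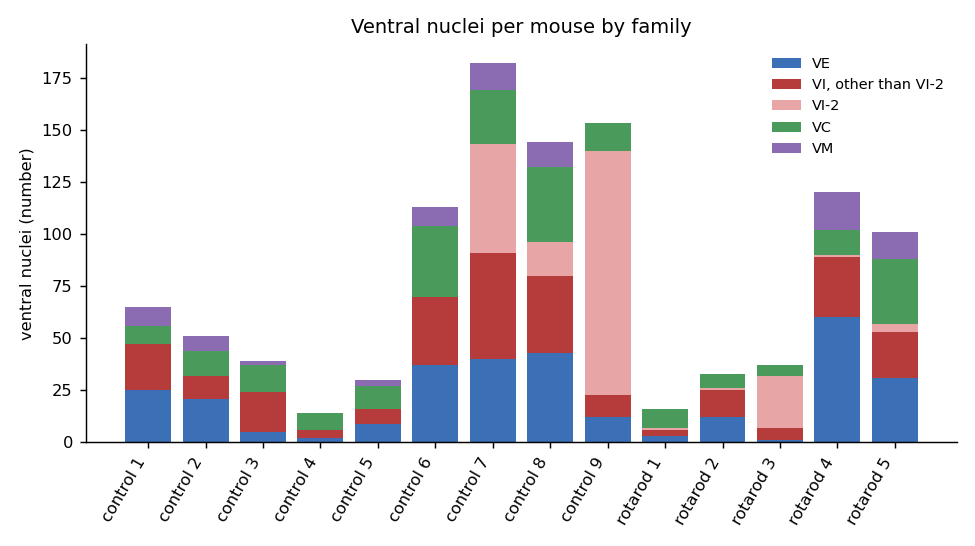
Number of ventral nuclei in each of the 9 control and 5 rotarod mice (bars), stacked by family, with the VI-2 population drawn apart from the rest of VI. VI-2 nuclei fill most of control mouse 9 and rotarod mouse 3 and are lacking in control mice 1 to 6.

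Libraries differed in 1 population before any gene was compared. Of 219 VI-2 nuclei in the series, 185 came from control mice 7, 8 and 9, which have titles ending in cx,, 25 from rotarod mouse 3, 7 from the other rotarod mice, 2 from formalin mice and 0 from the other 6 controls. The VI-3 population of 37 nuclei had 33 in the same 3 controls. Against the rest of VI, VI-2 nuclei held more of the kinase gene Mtor (527 against 76.6 CPM). No source used here says what the ending cx stands for.

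The makeup of the ventral nuclei varied widely within both groups. VE made up 25.5 ± 11.8% of ventral nuclei in control and 27.7 ± 17.9% in rotarod mice. For VI the shares were 40.3 ± 19.9% and 40.4 ± 25.4%, for VC 26.9 ± 14.8% and 26.3 ± 18.5%, and for VM 7.35 ± 5.05% and 5.57 ± 7.67%. None of the 4 differences passed a two-sided exact permutation test over the mice (adjusted p = 0.992 for each). Without control mice 7, 8 and 9 the control means were 28.2 ± 12.1% for VE, 30.9 ± 9.79% for VI and 32.4 ± 14.6% for VC, so that VI was 9.52 points higher and VC 6.10 points lower in rotarod mice (exact permutation adjusted p = 0.704 for both). Rotarod mouse 3, with 83.8% VI nuclei, and control mouse 9, with 83.7%, stood at the top of their groups.

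Across all ventral neurons, a single gene passed the test between rotarod and control mice. Ibtk, which encodes a BTB-domain adaptor of a cullin ubiquitin ligase named for its inhibition of Bruton tyrosine kinase, rose in rotarod mice. It stood at 28.8 ± 10.1 CPM in controls (n = 9) and 77.0 ± 18.1 CPM in rotarod mice (n = 5). Dok5 and Tpd52l1 had the next smallest adjusted p-values among genes higher in rotarod mice and missed the threshold. The genes were tested with edgeR's quasi-likelihood test on UMIs summed per mouse, with Benjamini-Hochberg adjustment over 5693 genes at 0.05.

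Ibtk lies on chromosome 9, from 85687360 to 85749334 on the minus strand of GRCm38 (GENCODE M21). Its level ran from 13.8 to 44.2 CPM over the control mice, with a median of 30.9. In rotarod mice 1 to 5 it was 83.0, 98.4, 48.8, 74.9 and 79.9 CPM. Every rotarod mouse lay above every control, and rotarod mouse 3, the one rich in VI-2 nuclei, was the lowest of its group. The log2 fold change was 1.49 (SE 0.26, edgeR adjusted p = 0.00737), from 117 UMIs in controls and 164 in rotarod mice. This 1 call is 0.0176% of the genes tested. At an unadjusted edgeR p under 0.05 there were 279 genes (4.9%), 131 higher (2.3%) and 148 lower (2.6%) in rotarod mice.

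The Ibtk call held with each of the 14 mice left out (adjusted p from 0.00089 to 0.0493) and with DESeq2 (adjusted p = 0.00561). Without the VI-2 and VI-3 nuclei its log2 fold change was 1.73 (edgeR adjusted p = 3.43e-04). The call was lost when the formalin mice shared the fit (adjusted p = 0.334), with VE and VI nuclei alone (0.0626) and with VE and VI weighted equally in limma (0.443), at log2 fold changes of 1.49, 1.41 and 1.54. With each nucleus thinned to 500 UMIs, Ibtk did not pass the filter on low counts and was not tested. Ibtk levels in the ventral nuclei of the formalin mice ran from 0 to 174 CPM with a median of 29.8.

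Dok5 encodes a docking protein that relays signals from receptor tyrosine kinases in neurons, and it lies on chromosome 2, from 170731807 to 170879769 on the plus strand. Control mice ran from 56.3 to 223 CPM with a median of 97.6. The rotarod mice held 145, 733, 171, 301 and 420 CPM in order of replicate. Only control mouse 4, with 223 CPM from 13 UMIs, reached into the rotarod range, and the next control stood at 123 CPM. The formalin mice ran from 75.9 to 567.9 CPM with a median of 192. The log2 fold change was 2.00 (SE 0.34, edgeR adjusted p = 0.083). DESeq2 called it (adjusted p = 0.00821), and so did edgeR without rotarod mouse 2, its highest mouse, at a log2 fold change of 1.6 (adjusted p = 0.0196). With each of the 14 mice left out in turn, edgeR called Dok5 in only 3 fits (adjusted p from 0.0196 to 0.370).

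Tpd52l1, a gene of vesicle traffic, differed by 1.56 on the log2 scale (SE 0.33, edgeR adjusted p = 0.0863), with 20.7, 58.3, 203, 38.4 and 95.2 CPM in the rotarod mice against 15.4 to 51.4 CPM in controls. Rotarod mouse 3 was far above the others for Tpd52l1, while mice 1 and 4 stayed within the control range. DESeq2 called 4 genes in all (0.0703%), among them Ibtk, Dok5 and Tpd52l1, all higher in rotarod mice.

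**Figure D2:**
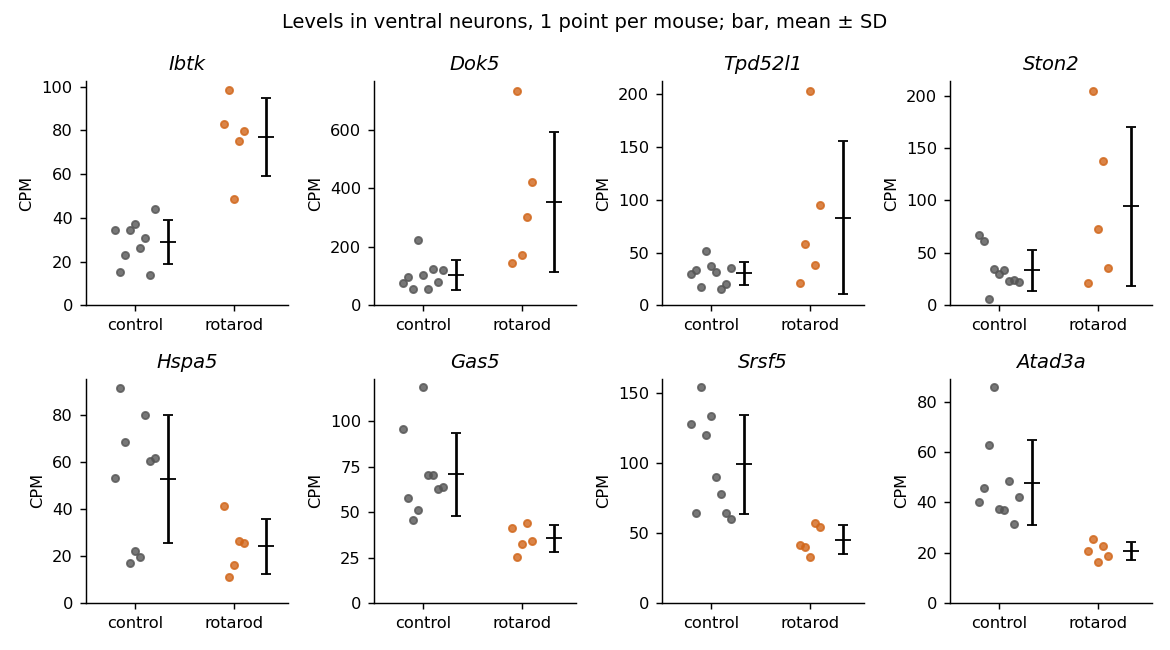
Levels (CPM, linear axis) of 8 genes in the summed ventral nuclei of each mouse (points), with mean and SD (bars), for 9 control and 5 rotarod mice. Ibtk, Gas5, Srsf5 and Atad3a separate the groups in every mouse, while the other 4 genes overlap.

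The other 9 genes highest in the order of p for a rise had adjusted p-values between 0.338 and 0.523 in edgeR, so the values below are a description. Without the filter on low counts, edgeR called Ston2 (adjusted p = 3.71e-07) and Tatdn1 (adjusted p = 0.0324) among them. Piezo2, the mechanically gated channel, averaged 53.6 ± 18.8 CPM in controls and 105 ± 51.1 CPM in rotarod mice, with 83.0, 54.7, 154, 67.5 and 165 CPM in the rotarod mice. Ppp3cc, a catalytic subunit of the calcium-dependent phosphatase calcineurin, was at 117 ± 38.3 and 188 ± 15 CPM, and the 5 rotarod mice fell within 173 to 207 CPM. Tmem163, a zinc transporter of synaptic vesicles, was at 114 ± 34.1 and 185 ± 57.3 CPM. Ston2, an endocytic adaptor that retrieves synaptotagmin, differed by 1.72 on the log2 scale (SE 0.43) with a wide spread, from 20.7 to 204 CPM over the rotarod mice. Sulf1, which trims heparan sulfate outside the cell, was at 21.9 ± 13.3 and 40.7 ± 6.72 CPM. Fam189a1, Fam19a2, Cep112 and Tatdn1 completed the set with log2 fold changes of 0.54, 0.50, 0.63 and 1.21. For Tatdn1, as for Tpd52l1, rotarod mouse 3 was the highest at 171 CPM.

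The lower genes by p were likewise not called by edgeR with the filter on low counts (adjusted p from 0.338 to 0.523 for those named here). Without that filter, edgeR called Hspa5 (adjusted p = 0.0351). Hspa5, the main chaperone of the endoplasmic reticulum, averaged 52.7 ± 27.3 CPM in controls and 24.1 ± 11.7 CPM in rotarod mice. Gas5, a long non-coding RNA that hosts small nucleolar RNAs, was at 70.8 ± 23.0 and 35.5 ± 7.41 CPM. The splicing factor Srsf5 was at 99.0 ± 35.4 and 45.1 ± 10.4 CPM, and the mitochondrial membrane ATPase Atad3a at 47.8 ± 16.8 and 20.7 ± 3.54 CPM. In each of Gas5, Srsf5 and Atad3a the highest rotarod mouse (44.0, 57.1 and 25.5 CPM) lay below the lowest control (45.6, 59.7 and 31.5 CPM). Gas5, Srsf5 and Atad3a span 4118, 5004 and 20453 bases, and short genes were lower as a group, as described below with gene span. Rogdi, Tmem191c, Grina, Tmem59l, Tecr, Rundc3a and Ip6k1 had log2 fold changes between -0.82 and -1.53. For Ip6k1, rotarod mouse 1 stood at 62.2 CPM, above every control, on 3 UMIs.

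Genes whose groups did not overlap were few. Every rotarod mouse lay above every control for 3 of 5693 genes (0.0527%): Ibtk, the tubulin polyglutamylase subunit Lrrc49 and the Ras exchange factor Sos2. Every rotarod mouse lay below every control for 8 genes (0.141%): Gas5, Srsf5, Atad3a, the RNA helicase Ddx39b, the adaptor Grb2, the GABA-synthesising enzyme Gad2, Leng8 and A230050P20Rik. Lrrc49, Sos2, Ddx39b, Grb2, Leng8 and A230050P20Rik were named after their values were seen. Gad2 was at 52.8 ± 28.6 CPM in controls (29.7 to 120, median 42.2) and at 20.7, 29.2, 16.3, 22.5 and 28.9 CPM in the rotarod mice, a log2 difference of -0.90 (SE 0.29, adjusted p in edgeR = 0.578).

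Immediate early genes were near the limit of detection in these nuclei. None of the 26 genes in the rapid activity list passed the filter on low counts, and 24 of them had a UMI in at least 1 nucleus. Fos gave 7 UMIs in 791 control nuclei and 11 UMIs in 307 rotarod nuclei. Per mouse, Fos was at 0 CPM in 6 controls and at 1.76, 3.67 and 1.26 CPM in control mice 6, 7 and 8. In rotarod mice 1 to 5 it was at 0, 10.9, 0, 1.87 and 10.2 CPM. Rotarod mice 2 and 5 stood above every control, and mice 1 and 3, whose ventral nuclei were among the shallowest, had none.

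The group means for Fos were 0.743 ± 1.28 CPM in controls and 4.60 ± 5.51 CPM in rotarod mice (two-sided exact permutation p = 0.0539, smallest possible 4.995e-04). The exact p was 0.028 without rotarod mouse 1 or without rotarod mouse 3, 0.0412 without control mouse 7, and 0.151 without rotarod mouse 2 or without rotarod mouse 5. In the fit across all genes without a filter, the edgeR adjusted p for Fos was 0.685. A Fos UMI was found in 6 of 791 control nuclei (0.759%) and in 8 of 307 rotarod nuclei (2.61%). Oligodendrocyte nuclei of the same mice, at a median of 1264 UMIs in controls and 1241 in rotarod mice against 4094 and 5233 in ventral nuclei, gave a Fos UMI in 1 of 837 (0.119%) and 0 of 333, which allows a share of up to 0.901%. These shares pool the nuclei of all mice of a group, cover counting error only, and limit nuclei with a UMI, not nuclei that express Fos.

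The other activity genes gave no clear order of the groups. Egr1 was at 3.59 ± 4.67 CPM in controls and 6.16 ± 3.92 CPM in rotarod mice (exact permutation p = 0.325), Junb at 2.30 ± 2.55 and 5.46 ± 9.00 CPM (p = 0.434), and Nr4a1 at 7.84 ± 5.40 and 12.7 ± 16.6 CPM (p = 0.505). For Junb and Nr4a1 the highest value was that of rotarod mouse 1, and without that mouse the rotarod mean was the lower one. Npas4, a factor induced by calcium entry, was at 7.99 ± 5.99 and 10.2 ± 11.1 CPM (p = 0.655), and rotarod mouse 2 alone reached 29.2 CPM. Arc had 2 UMIs in each group, and Fosb had 0 UMIs in all 14 mice. Homer1 and Sorcs3, which respond to activity more slowly, passed the filter with log2 fold changes of 0.16 (SE 0.25) and 0.12 (SE 0.17).

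Summed over the 26 rapid genes, the level was 77.2, 45.7, 34.2, 34.3, 66.9, 52.8, 42.6, 64.2 and 66.3 CPM in control mice 1 to 9. In rotarod mice 1 to 5 it was 124, 76.5, 97.5, 64.6 and 71.4 CPM. The groups overlapped, with control mice 1, 5 and 9 above the lowest rotarod mouse, and the highest sum was that of rotarod mouse 1, which had the fewest UMIs. The sums rest on 230 UMIs in controls and 150 in rotarod mice. Of the 24 genes with a UMI, 16 had the higher mean in rotarod and 8 in control mice, and the exact p was under 0.05 for 0 of them. The growth factor Bdnf, which was called in the unfiltered edgeR fit (14 of 25329 genes called, 0.0553%; adjusted p = 0.0254), was at 120 CPM in rotarod mouse 2 and between 5.1 and 20.7 CPM in the other rotarod mice, against 0 to 22.3 CPM in controls.

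**Figure D3:**
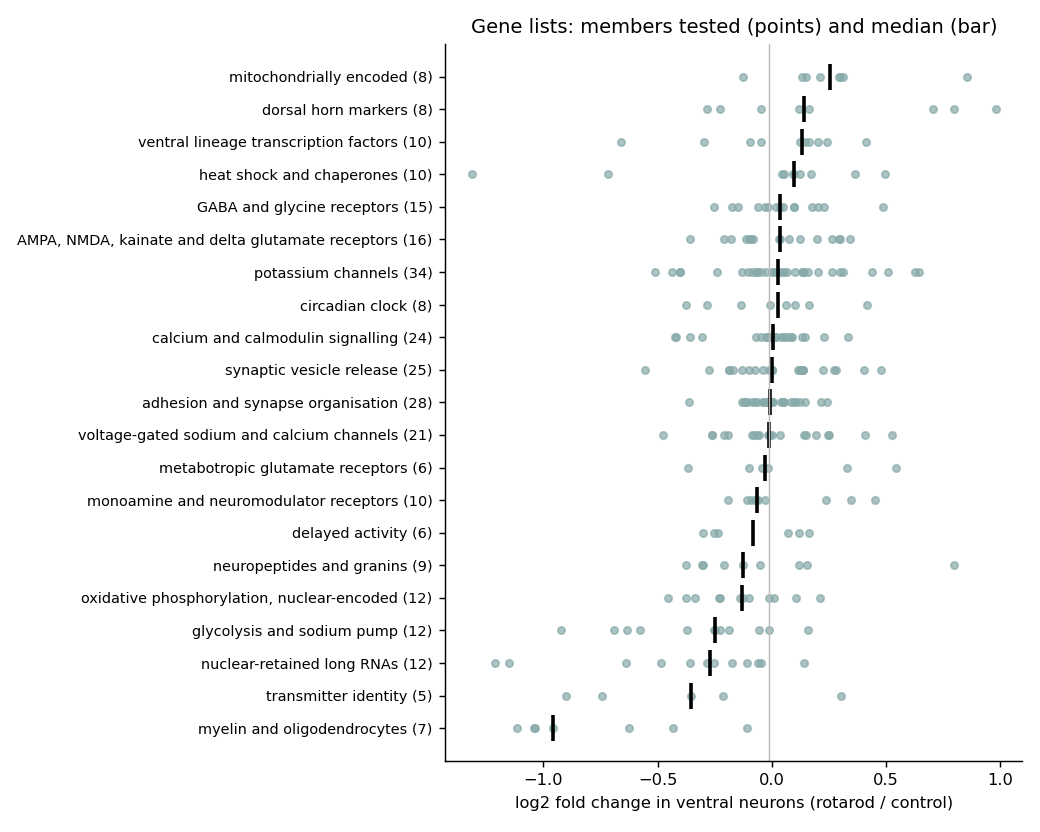
Log2 fold change between rotarod and control mice in ventral neurons for each tested member (points) of the gene lists with 5 or more tested members, with the list median (black bars) and the median of all genes tested (grey line, -0.01). The number of tested members stands in brackets, and the myelin list lies farthest to the lower side.

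The remaining gene lists are described by their counts, beside the background of 2741 positive and 2952 negative log2 fold changes (median -0.01) and of 4.9% at an unadjusted p under 0.05. No list member was called by edgeR in this fit, and members are named after their values were seen. Markers of ventral lineages had 10 of 34 members tested, 6 positive and 4 negative (median 0.13), with 1 member, Onecut2, at p under 0.05 (log2 fold change 0.41, SE 0.19). Of 8 dorsal horn markers tested, 5 were positive (median 0.14), among them the enkephalin precursor Penk at 0.80 (SE 0.32). Cholinergic genes had 4 of 23 members tested, 1 positive and 3 negative (median -0.25), with the acetylcholinesterase gene Ache at -0.58 (SE 0.27) and the muscarinic receptor Chrm3 at -0.37 (SE 0.15). Chat itself missed the filter, at 10.8 ± 10.7 CPM in controls and 37.4 ± 42.9 CPM in rotarod mice, where mice 1 and 2 held 104 and 54.7 CPM. The VC share of nuclei was 56.2% and 21.2% in those mice, and control mouse 4, with 57.1%, held 17.1 CPM of Chat. That value is a single UMI in control mouse 4, and a single UMI was worth 20.7 CPM in rotarod mouse 1. How the Chat level follows the VC share was not tested.

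Of 5 transmitter identity genes tested, 1 was positive and 4 negative (median -0.35). Slc17a6 was at 70.7 ± 13.5 CPM in controls and 45.8 ± 15.8 CPM in rotarod mice (log2 fold change -0.35, SE 0.22), and Slc6a5 at 76.4 ± 21 and 83.3 ± 43.5 CPM (0.31, SE 0.23). Slc32a1, which loads GABA and glycine into vesicles, missed the filter at 7.22 ± 6.44 and 2.99 ± 3.49 CPM. With Gad2 the lower transmitter genes thus included both a glutamatergic and a GABAergic gene.

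Receptors, channels and release genes were spread on both sides of 0. AMPA, NMDA, kainate and delta receptors had 9 positive and 7 negative of 16 (median 0.03), GABA and glycine receptors 9 and 6 of 15 (0.04), potassium channels 21 and 13 of 34 (0.03), and release genes 15 and 10 of 25 (0.00). Sodium and calcium channels had 9 positive and 12 negative of 21 (-0.01). At an unadjusted p under 0.05 stood the glutamate receptor Grid1 (0.34, SE 0.15), the GABA receptor subunit Gabra5 (0.49, SE 0.21), the L-type calcium channel Cacna1c (0.41, SE 0.14), the sodium channel Scn9a (0.53, SE 0.22) the potassium channel genes Kcnmb2 (0.63, SE 0.21) and Kcnk2 (0.64, SE 0.28) and the vesicle protein Sv2b (0.48, SE 0.22). Each of these was higher in rotarod mice, at edgeR adjusted p-values between 0.601 and 0.964. Cacna1c was at 694 ± 123 CPM in controls, from 434 to 856, and at 1037, 798, 1113, 857 and 833 CPM in rotarod mice, so that 3 of the 5 lay above every control.

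Among genes of energy supply, few passed an unadjusted threshold in the fit with the filter on low counts. Of 12 glycolysis and sodium pump genes tested, 1 was positive and 11 negative (median -0.25), with 1 at p under 0.05. This was Atp1b1, the beta subunit of the sodium pump, at 221 ± 104 CPM in controls (51.4 to 386, median 194) and 104, 80.2, 171, 130 and 107 CPM in rotarod mice (log2 fold change -0.92, SE 0.29). All 5 rotarod mice lay below the control median for Atp1b1. Without the filter on low counts, edgeR called Atp1b1 (adjusted p = 0.0381). Nuclear-encoded respiratory chain genes had 3 positive and 9 negative of 12 (median -0.13), and none at p under 0.05. Mitochondrially encoded transcripts had 7 positive and 1 negative of 8 (median 0.25), and their sum ran from 1713 to 19303 CPM in controls and from 5396 to 16598 CPM in rotarod mice. Control mouse 9 and rotarod mouse 1 were the highest of their groups for that sum.

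Of 12 nuclear-retained long non-coding RNAs tested, 1 was positive and 11 negative (median -0.27). Snhg11 (-0.36, SE 0.13), Neat1 (-1.21, SE 0.43) and the miR-124 host gene Mir124a-1hg (-0.64, SE 0.24) were at an unadjusted p under 0.05. Heat shock genes and chaperones had 8 positive and 2 negative of 10 (median 0.10), and the 2 negative ones, Hspa5 and Hsp90b1, are chaperones of the endoplasmic reticulum. Delayed activity genes had 3 positive and 3 negative of 6 (median -0.08), and clock genes 4 and 4 of 8 (0.03). Adhesion genes (13 and 15 of 28, median -0.01), calcium signalling genes (12 and 12 of 24, 0.01), neuropeptides (3 and 6 of 9, -0.13) and monoamine receptors (3 and 7 of 10, -0.07) had between 0 and 1 member at an unadjusted p under 0.05. Ribosomal protein genes were too low to be tested, and summed to 205 ± 51.6 CPM in controls and 177 ± 32.2 CPM in rotarod mice.

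Markers of myelinating cells were lower in the ventral nuclei of rotarod mice by count. All 7 members tested were negative (0 positive, median -0.96), and 2 of them, the oligodendrocyte factor St18 (-1.12, SE 0.35) and the myelin adhesion gene Mag (-0.96, SE 0.42), were at an unadjusted p under 0.05. Without the filter on low counts, edgeR called St18 (adjusted p = 0.0196). The summed level of the list ran from 223 to 1409.7 CPM in controls (median 652) and was 892, 251, 341, 561 and 497 CPM in rotarod mice 1 to 5. The ranges overlapped, and control mice 6, 8 and 9 held the highest sums. The part of this RNA that comes from other cells was not tested. Astrocyte markers summed to 137 to 501 CPM in controls and 171 to 290 CPM in rotarod mice, and microglial markers to 53.6 to 152 and 48.8 to 104 CPM.

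The direction of a gene's difference varied with its span on the chromosome. Across 5607 genes with a GENCODE span, the log2 fold change correlated with the log of the span at Pearson r = 0.298 and Spearman rho = 0.315, a description across genes that share the same 14 libraries. With genes ranked by span in 4 equal groups, 11 of the shortest genes (median 17.9 kb) were higher and 109 lower at an unadjusted edgeR p under 0.05. Of the longest genes (median 237 kb) 64 were higher and 7 lower. The median log2 fold change went from -0.15 in the shortest to 0.06 in the longest group. Of the genes named above, Gas5, Srsf5, Hspa5 and Grina span 3141 to 5578 bases. Fam19a2, Cep112, Fam189a1 and Piezo2 span 376971 to 477209 bases. Tecr (36274) and Ip6k1 (46282) among the lower genes and Tatdn1 (43584) among the higher ones lie between. How far each named difference follows span is not reported here, other than for Ibtk.

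Per mouse, the longest minus the shortest group was 0.16, 0.30, 0.27, 0.21 and 0.19 on the log2 scale in rotarod mice 1 to 5 and ran from -0.18 to 0.24 in controls, with a median of 0.01. Control mice 4 and 7 reached into the rotarod range or came within 0.01 of it. After an offset for span in each library, the counts were 22 higher and 45 lower in the shortest group and 37 and 22 in the longest, and Ibtk kept its value at 1.49 (edgeR adjusted p = 0.00686). The median of the long RNA list moved to -0.13 under that offset and that of the myelin list to -0.82. The respiratory chain median moved to -0.05, the glycolysis and sodium pump median to -0.22 and the mitochondrially encoded median to 0.50. Small medians changed sign under the offset for the glutamate receptor (-0.04), GABA and glycine receptor (-0.03), calcium signalling (-0.05), clock (-0.01) and delayed activity (0.01) lists. The same correlation was 0.271 in dorsal neurons, -0.00359 in oligodendrocytes and -0.126 in astrocytes of these mice. Whether library quality, the share of unspliced RNA or the rotarod run moved with span was not tested.

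**Figure D4:**
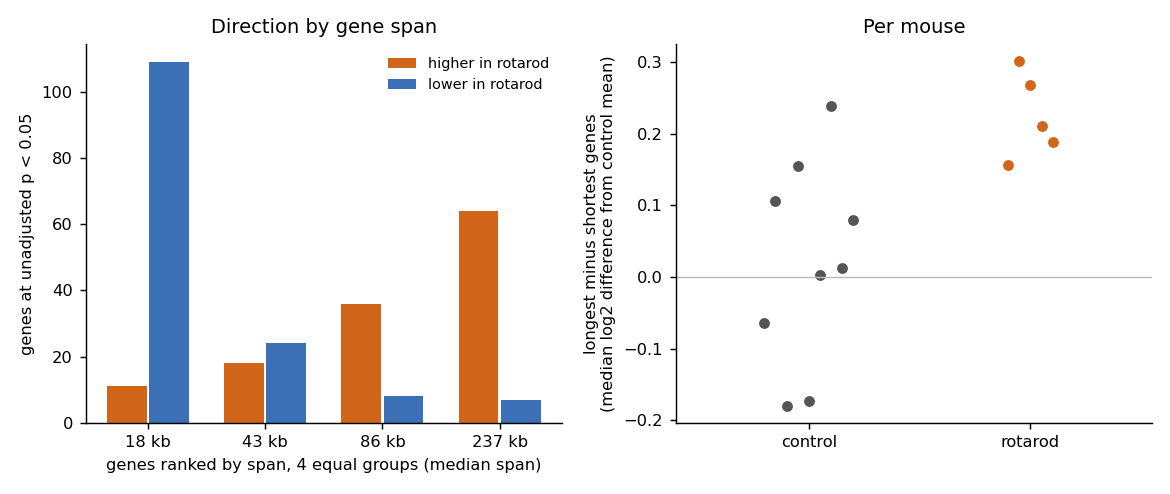
Left, number of genes at an unadjusted p under 0.05 that were higher or lower in rotarod mice, in 4 equal groups of genes by span (median span in kb). Right, the difference between the longest and shortest group in each of 9 control and 5 rotarod mice (points), where the rotarod mice sit between 0.16 and 0.30 and the controls between -0.18 and 0.24.

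Within single families, Dok5 passed the test in both VE and VI. In VE nuclei, compared over 8 control and 3 rotarod mice with 5 or more such nuclei, 3 of 3799 genes (0.079%) were called by edgeR, and 163 (4.29%) were at an unadjusted p under 0.05. Dok5 rose from 83.6 ± 43.6 CPM in controls to 538 ± 303 CPM in rotarod mice, and the lowest rotarod mouse, at 321 CPM, lay above the highest control, at 143 CPM. Its log2 fold change was 2.41 (SE 0.30, edgeR adjusted p = 1.08e-04). Ibtk rose from 20.7 ± 12.5 to 85.9 ± 14 CPM (1.89, SE 0.41, edgeR adjusted p = 0.0235). Cntnap5c, a cell adhesion gene of the neurexin-like Caspr family, rose from 141 ± 44.6 to 315 ± 102 CPM (1.07, SE 0.23, edgeR adjusted p = 0.0235), and the count of calls in VE ran from 2 to 5 with each mouse left out. Over all ventral nuclei Cntnap5c stood at 294 ± 270 and 340 ± 217 CPM.

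In VI nuclei (8 control and 4 rotarod mice) 1 of 2787 genes (0.0359%) was called, and 133 (4.77%) were at an unadjusted p under 0.05. Dok5 rose from 86.6 ± 41.1 to 371 ± 185 CPM (1.95, SE 0.32, edgeR adjusted p = 0.00789), and the value without VI-2 and VI-3 nuclei was 2.39. The call was lost without rotarod mouse 5, and 4 genes were called without rotarod mouse 4. Rotarod mouse 1 had too few nuclei for either family and mouse 3 too few for VE. The difference between VE and VI was not tested. In VC nuclei, with 45 and 78 Dok5 UMIs over all control and rotarod mice, Dok5 stood at 72.2 ± 51.7 and 292 ± 108 CPM.

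**Figure D5:**
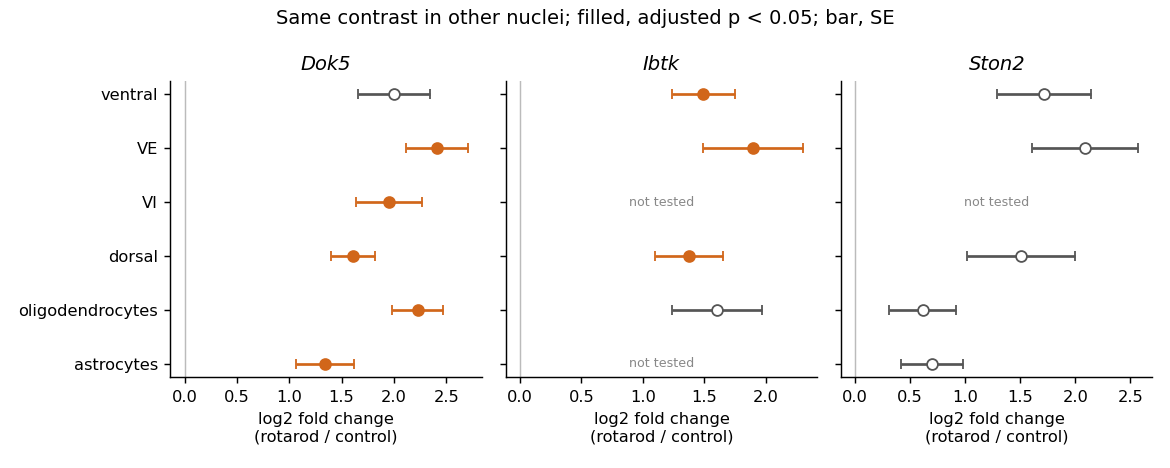
Log2 fold change of 3 genes between rotarod and control mice (points, with SE as bars) in all ventral nuclei, in VE and VI, and in dorsal neurons, oligodendrocytes and astrocytes of the same mice. Filled points passed an edgeR adjusted p of 0.05, and Dok5 passed in every kind of nuclei other than the ventral sum.

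The same contrast was fitted in other nuclei of these mice, after the ventral result had been seen, over 9 control and 5 rotarod mice for dorsal neurons and over 8 and 5 for each kind of glia, where control mouse 9 had too few nuclei. In dorsal neurons 2 of 5067 genes (0.0395%) were called, again Dok5 (1.61, SE 0.21, edgeR adjusted p = 6.55e-05) and Ibtk (1.38, SE 0.28, edgeR adjusted p = 0.0346). Dorsal neurons held Dok5 at 91.0 ± 40.7 CPM in controls and 247 ± 67.0 CPM in rotarod mice. In oligodendrocytes 2 of 2613 genes (0.0765%) were called, Dok5 (2.23, SE 0.25) and Cmss1 (1.69, SE 0.34). Ibtk was at 1.6 there (SE 0.36, edgeR adjusted p = 0.0868). In astrocytes 6 of 1332 genes (0.45%) were called, with Dok5 at 1.34 (SE 0.28) beside Atg4a, Ccnl2, Hif3a, Snx9 and Stxbp3. The higher Dok5 level of rotarod mice was therefore measured in neurons and in glia alike.

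Whether an effect differed between ventral and dorsal neurons was tested within mice, with the mouse as a term in the edgeR model. Of 6695 genes, 0 passed (percent called 0), 243 (3.63%) were at an unadjusted p under 0.05, and limma-voom called 0 as well. For Dok5 the rotarod effect was larger in ventral neurons by 0.31 (SE 0.20, unadjusted p = 0.13), and for Ibtk by 0.15 (SE 0.35, unadjusted p = 0.663). Among the 5 genes with the smallest p were the inhibitory lineage factor Pax2 (-1.09), Atp1b1 (-0.73), Penk (1.21) and 9530052E02Rik (-0.96), each with an adjusted p of 0.99. No rotarod effect was thus shown to be particular to ventral neurons. A p that misses the threshold does not show that the effects were equal.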

How the data were processed

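The deposited files hold raw UMI counts that the authors made for 32962 genes, and a table of cell populations. The submitters' processing notes name mm10 and GRCm38 as builds; no source used here gives the aligner or whether introns or strand entered the counting. Overlapping genes may therefore share UMIs. Members and gene lists were chosen with earlier results of these data known. Counts of the ventral nuclei were summed per mouse (at least 10 nuclei) and fitted in edgeR 4.0.16 (TMM scaling, filter by group, robust quasi-likelihood) in R 4.3.3, Benjamini-Hochberg at 0.05. DESeq2 1.42.0 and limma 3.58.1 gave alternatives. CPM are UMIs per 1000000 UMIs of the same nuclei; reported SDs are between mice. The labels give each mouse as a separate sample. Single values were compared by exact permutation in R over all splits of the mice, 2002 for the full set. Spans came from GENCODE M21. Doublets were not called again. No pair of libraries agreed within sampling noise.

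The named genes were the 12 highest and 12 lowest (called genes first, then by smallest p) with at least 20 CPM in the higher group, a set of activity and transmitter genes, and the 5 with the smallest p of the ventral against dorsal difference. Of 655 genes in the lists, 638 were in the table. Families needed 5 nuclei per mouse. Nuclei were thinned to 500 UMIs in an alternative. The fits were tested on simulated counts. Leaving out VI-2 and VI-3, leaving out rotarod mouse 3 with the cx controls, and the fits in dorsal neurons and glia were added after the data were seen. Not every gene that meets this naming rule is reported here.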

Additional observations from a re-analysis of the deposited data

Results flagged for a closer look

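Of 74 groups of mice checked for a value far from the rest, 9 held one. The rule flags about 5% of groups by chance only where values are normally distributed. Some groups here rest on few UMIs with many values at 0, so 9 of 74 cannot be read against 5%. In controls the highest value stood apart for Dok5 (223 CPM in mouse 4, next 123), Sulf1 (51.4 CPM, next 28.7), Fos (3.67 CPM, next 1.76) and Egr1 (14.9 CPM, next 5.33). The lowest control for Piezo2, 12.2 CPM, lay far below the next at 43.3. In rotarod mice the highest value stood apart for Ip6k1 (62.2 CPM, next 21.5), Nr4a1 (41.5 CPM, next 10.2), Npas4 (29.2 CPM, next 8.43) and Arc (1.87 CPM, the others at 0 CPM). The Dok5 and Sulf1 values are those of control mouse 4, and the Ip6k1 and Nr4a1 values those of rotarod mouse 1, the mice with the fewest ventral UMIs in their groups.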

How the results depend on the processing

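Depth limits the comparison, and activity genes rest on few UMIs. The number of genes called in ventral neurons, 1 in the analysis reported, was 4 with DESeq2, 14 with no filter, 3 with at least 20 nuclei, 0 with all 3 groups in 1 fit, 2 without the cx controls, 0 after thinning to 500 UMIs, 4 with the VE share as a covariate, 0 in VE and VI nuclei only, 2 without VI-2 and VI-3 nuclei, 4 without rotarod mouse 3 and the cx controls, and between 1 and 3 with each mouse left out. The thinned fit could not call Ibtk, which did not pass the filter on low counts there. In VE the count of 3 became 6 without the cx controls and ran from 2 to 5 with a mouse left out, and in VI the count of 1 became 2 and ran from 0 to 4. The difference in the VE share was -0.546 points without the cx controls. With each mouse left out it ran from -3.34 to 8.49 for VE, from -10.7 to 5.56 for VI and from -8.08 to 3.49 for VC, all short of the threshold. Rotarod minus control levels with each mouse left out ran, in CPM, from 2.28 to 5.01 for Fos, from -0.662 to 4.52 for Junb, from 1.54 to 4.11 for Egr1, from -2.32 to 8.06 for Nr4a1, from -2.58 to 4.71 for Npas4 and from -0.385 to 0.217 for Arc. Thinning turned Egr1 to -1.45, Nr4a1 to -8.06 and Npas4 to -7.00 CPM. The Arc difference, -0.0106 CPM, was 3.33 CPM after thinning, 0.375 CPM without the cx controls and 0.184 points as a share of nuclei. The cause of these shifts was not tested. The difference between ventral and dorsal neurons gave 0 calls in each alternative run. No paired analysis was possible because replicate numbers do not tie control to rotarod mice.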
